A study of Drosophila mauritiana and Drosophila melanogaster and Drosophila simulans with 12 samples.

Results

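The data described here are 6 RNA-seq libraries of *Drosophila mauritiana*, a sister species of *D. simulans*, out of the 12 libraries of the series. All 6 were made from eye-antennal imaginal discs, the larval epithelia that give rise to the compound eye, the ocelli, the antenna and most of the head capsule. They share strain (TAM16), sex (female late larvae), stage (120 h after egg laying), rearing temperature (25 °C), 40 to 50 discs per sample, 500 ng of total RNA and library kit. They were chosen because they form 2 separately sequenced sets of 3: A, B and C were sequenced single-end with 50 bp, and D, E and F paired-end with 100 bp. The other 6 libraries, used only as a scale, are 3 single-end libraries of *D. melanogaster* (OreR) and 3 paired-end libraries of *D. simulans* (YVF). YVF is the marker strain *yellow vermillion forked*. Tissue, stage and sex were the same. Since every member of a set has the same read type, read type, sequencing run and any difference between the collections of larvae cannot be told apart in what follows. The question is how far genes of 1 strain differ between the sets once transcript length is taken into account, and in which gene functions.

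An eye-antennal disc of this stage is a mixture. Behind the morphogenetic furrow, a front of differentiation that crosses the eye field, cells leave the cycle and become photoreceptors, while cells ahead of it still divide under the control of the retinal determination genes. Glia migrate into the disc from the brain through the optic stalk. Fat body, salivary gland, muscle and circulating hemocytes lie close to the disc in the larval head and can adhere to it during dissection, and the fat body of a late larva fills with storage proteins that it secretes into the hemolymph. Ecdysone pulses at the end of the third instar switch on regulators and, later, cuticle genes. In bulk RNA, fewer cells of a type and less RNA per cell cannot be told apart.

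Library depth differed strongly between the sets. The single-end libraries A, B and C held 17619560, 34056746 and 25391899 counts, and the paired-end libraries D, E and F held 121424737, 143014391 and 156921879. The paired-end counts are higher in part by construction, because each 100 bp read was split by the authors into 50 bp reads that were counted separately. A total of 13311 genes could be followed in all 6 libraries, and 13045 of them carry a symbol. The 20 genes of the disc identity list, which hold the retinal determination and antennal selector genes, were all measured and all passed the filter on low counts, with summed levels of 1742, 2248 and 2295 CPM (counts scaled to a common library total) in the single-end and 2128, 2146 and 2429 CPM in the paired-end libraries. *eyeless* (*ey*), *twin of eyeless* (*toy*) and *eyes absent* (*eya*), which specify the eye field, had at least 132 normalized CPM (CPM scaled with the factors of their length class) in every library, and so the labelled tissue was found in both sets.

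Transcript length separated the sets before any gene was tested. Genes were split into 3 classes of equal size by the length of their *D. mauritiana* model, with 4439 genes of 36 to 825 nt, 4436 genes of 826 to 1608 nt and 4436 genes of 1609 to 31517 nt, called short, intermediate and long below. Short genes took 44.3 %, 42.3 % and 32.9 % of the counts in A, B and C, and 25.4 %, 24.8 % and 27.1 % in D, E and F. Long genes took 26.7 %, 30.2 % and 39.1 % in the single-end set and 48.4 %, 49.3 % and 46.7 % in the paired-end set. On average the share of long genes was 16.1 percentage points higher in the paired-end set (48.1 ± 1.36 % against 32.0 ± 6.37 %, SD, n = 3 each), without overlap. The exact two-sided permutation test gave p = 0.1, the smallest value that 3 against 3 libraries allow. Replicate C lay between A and B on one side and the paired-end set on the other. The 3 single-end libraries of *D. melanogaster* also had shares of short genes of 34.1 %, 43.4 % and 36.7 %, above the 30.0 %, 26.6 % and 27.2 % of the paired-end libraries of *D. simulans*.

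**Figure D1:**
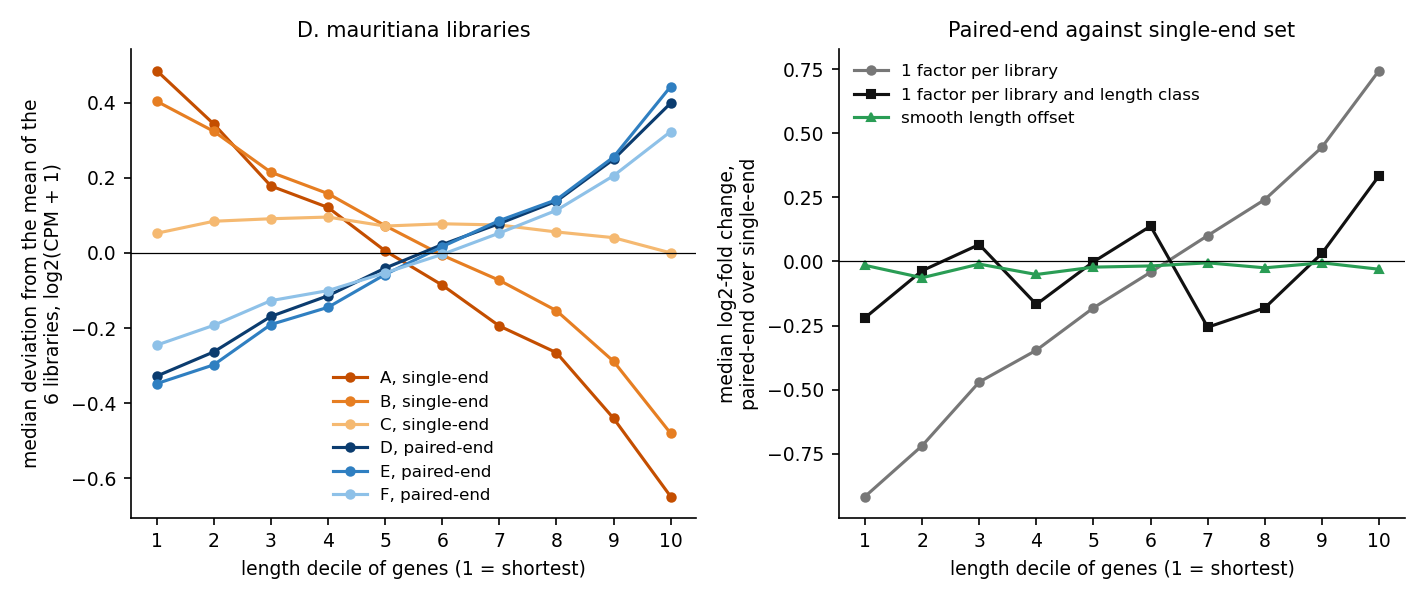
Left, median deviation of each *D. mauritiana* library from the mean of the 6 libraries (log2(CPM + 1)) by length decile of the genes. A and B fall and D, E and F rise with length, while C stays near 0. Right, median log2-fold change of the paired-end over the single-end set by length decile under 3 scalings. With 1 factor per library the medians run from -0.92 to 0.74, with 1 factor per library and length class they stay between -0.26 and 0.33, and with a smooth length offset they lie near 0.

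With 1 TMM factor (trimmed mean of M values, a scaling that assumes most genes alike) per library, the median log2-fold change (positive values mean higher in the paired-end set throughout) was -0.70 for short, -0.20 for intermediate and 0.40 for long genes, and Spearman's rho of fold change and length was 0.54 across 10467 genes, which are not independent replicates. Factors computed separately within each length class brought the medians to -0.02 in all 3 classes and rho to 0.08. Within a class some slope was left. In the longest decile of genes, from 3480 nt up, the median remained at 0.33, and 433 genes were called higher in the paired-end against 42 in the single-end set. In decile 7, at the short end of the long class, it was -0.26, with 89 genes against 315. A smooth offset over length, used as an alternative, brought rho to -0.02. Its value is given for some, but not all, of the genes and groups that depend on it.

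With factors within length classes, edgeR's quasi-likelihood test called 3368 of 10467 genes (32.2 %) different between the sets at an adjusted p below 0.05. In the paired-end set 1789 genes (17.1 %) were higher, and in the single-end set 1579 (15.1 %). Most of the differences were small, with a median absolute log2-fold change of 0.40 over all genes tested. In 2934 genes every paired-end library lay above every single-end library, and in 2736 genes every single-end library lay above every paired-end library. Lack of overlap between the sets was therefore common. At least 2-fold differences were called for 768 genes (7.34 %) higher in the paired-end and 302 genes (2.89 %) higher in the single-end set. By length, 28.3 % of 2818 short, 27.8 % of 3557 intermediate and 38.6 % of 4092 long genes were called. As a scale, species were compared on libraries of 1 read type, with 1 TMM factor per library and no factors within length classes. This called 1773 of 9761 genes (18.2 %) between single-end *D. melanogaster* and *D. mauritiana*. Between paired-end *D. simulans* and *D. mauritiana* it called 2790 of 11113 (25.1 %). With the same scaling, 4745 of the 10467 genes were called between the *D. mauritiana* sets. The counts between species share the *D. mauritiana* libraries with the contrast described here and were not tested against it.

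The number of calls depended on single libraries. Without A, B or C, 1793, 292 and 5106 genes were called, and without D, E or F, 142, 376 and 1691. Leaving out C, the single-end replicate whose length profile was closest to the paired-end set, raised the number, and leaving out B, D or E lowered it most. A set of 135 genes was called in all 6 of these fits, 105 higher in the paired-end set (91 of them at least 2-fold) and 30 higher in the single-end set (26 at least 2-fold), and 125 of the 135 were also called with the smooth offset. These 135 genes are referred to as called in every fit. Members of the function lists that are named below beyond 3 per direction, such as *Mhc*, *Cpr12A*, *repo* or *Rpn1*, were chosen after their values were seen.

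**Figure D2:**
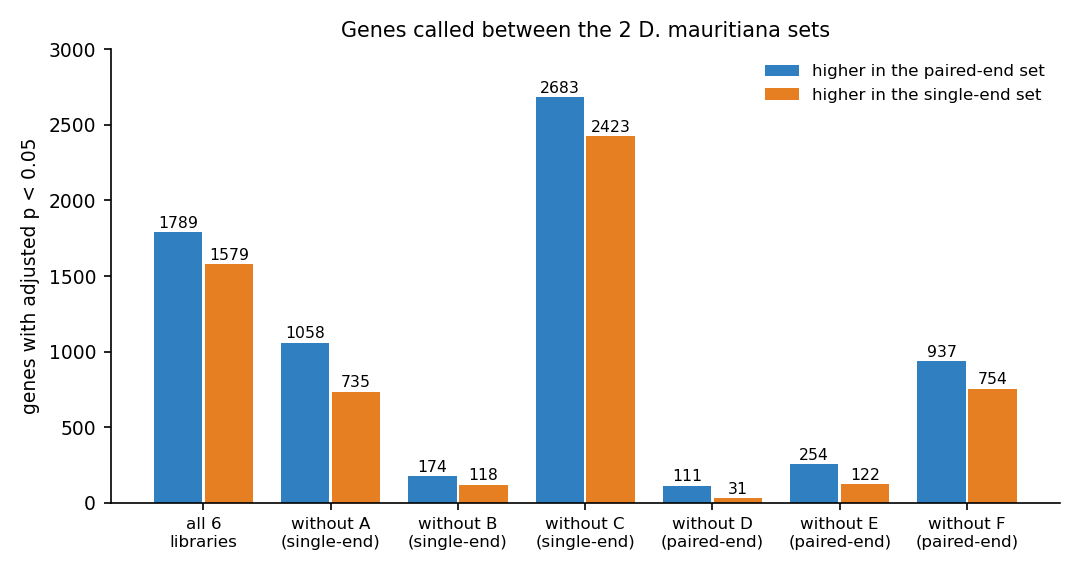
Number of genes with an adjusted p below 0.05 (edgeR) between the *D. mauritiana* sets, with all 6 libraries and without each library in turn. Blue bars count genes higher in the paired-end set and orange bars genes higher in the single-end set. The totals range from 142 without D to 5106 without C.

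**Figure D3:**
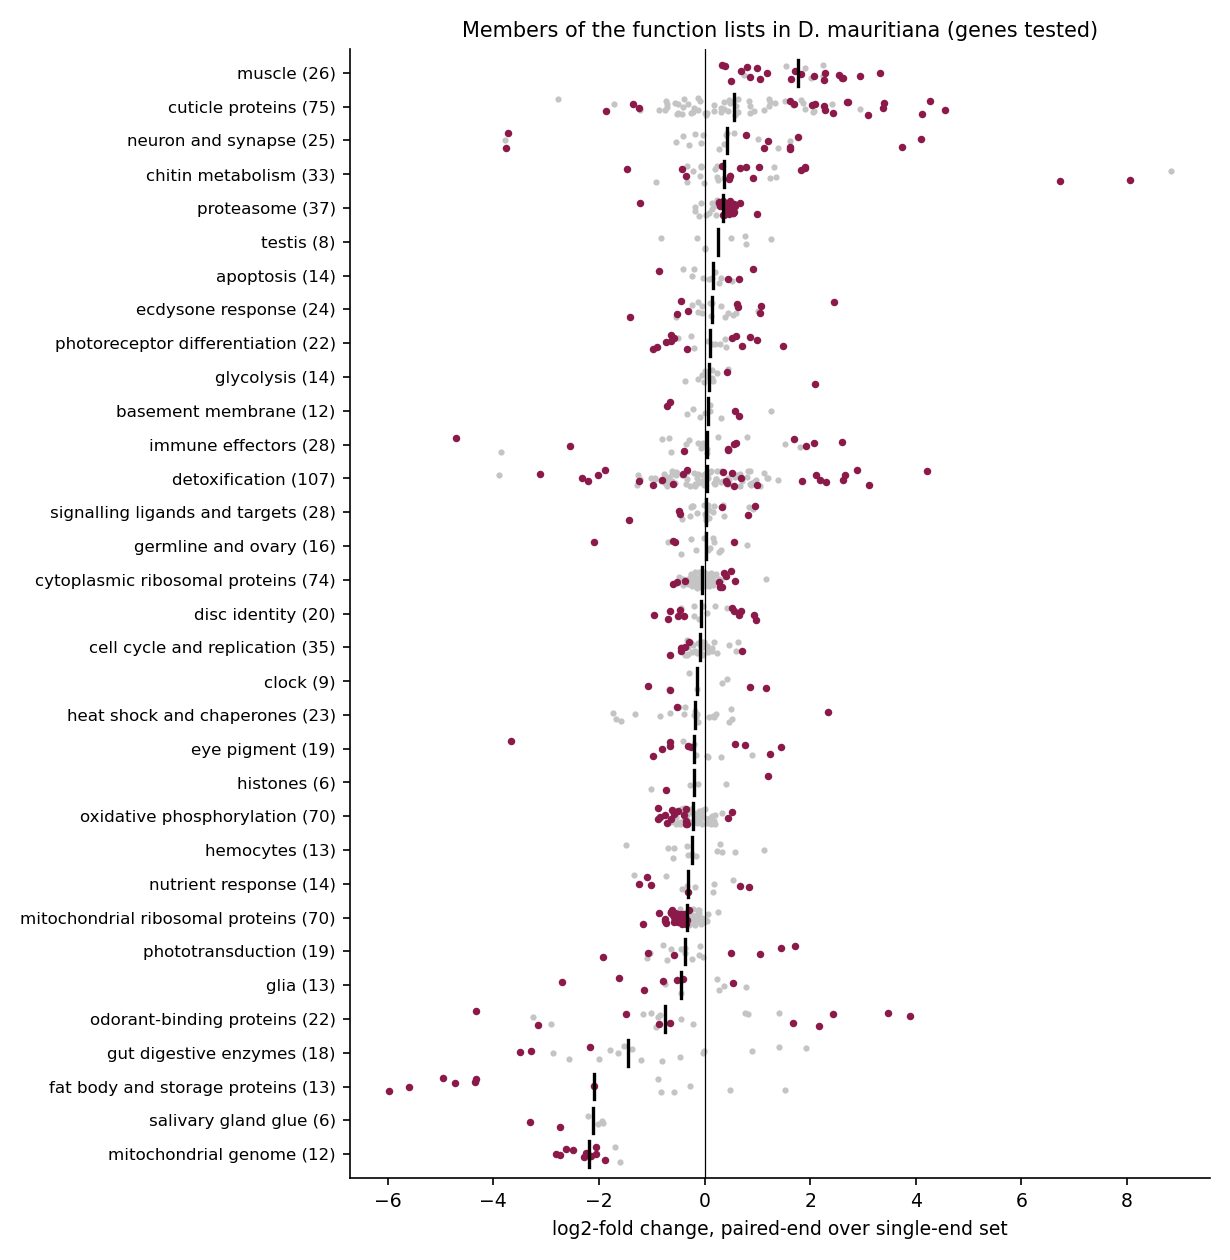
Log2-fold change, paired-end over single-end, of every tested member of 33 function lists (number tested in brackets), ordered by the median of the list, which the black bar marks. Dark points are called members. Muscle has the highest median (1.77), and the fat body, salivary gland glue and mitochondrial genome lists have medians below -2.

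Fat body transcripts were far more abundant in the single-end set. Of 13 fat body and storage genes, 53.8 % were called, beside 32.2 % of all genes. In the single-end set 7 were higher, all of them at least 2-fold, and in the paired-end set none. The median log2-fold change was -2.09 beside -0.02 over all genes tested. *Lsp1alpha*, a subunit of the hexameric larval serum proteins that store amino acids for metamorphosis (X, 11540947 to 11543459 on the published *D. mauritiana* genome, 2 exons), had 105, 158 and 109.5 normalized CPM in A, B and C and 2.26, 2.39 and 3.07 in D, E and F. Its 2 sets were separated by a wide gap, with a log2-fold change of -5.59 (edgeR, standard error 0.23, adjusted p = 0.000342). *Fbp1*, the fat body receptor that takes the storage proteins back up (3L, 13506242 to 13508219, 1 exon), had 152.5, 254 and 922 normalized CPM against 9.53, 7.90 and 3.82. C was the highest library for this gene, and the log2-fold change was -5.97 with all libraries and -4.84 without C. *Lsp1beta* (-4.96), *Lsp2* (-4.71), *Lsp1gamma* (-4.33) and *Fbp2* (-4.34), a dehydrogenase-like protein of the fat body, were lower in the paired-end set by similar factors, and *apolpp*, which encodes the main lipoprotein of the hemolymph, changed less (-2.09). The yolk protein genes, which adult female fat body expresses, were at or below 6.55 normalized CPM in all libraries and none was called. The lipoprotein receptor gene *LpR2* (0.48), chosen after its values were seen, went the other way, with every paired-end library above every single-end library, and was called by DESeq2 and without C but not by edgeR with all libraries.

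The 5 storage genes *Fbp1*, *Lsp1alpha*, *Lsp1beta*, *Lsp1gamma* and *Lsp2* were called in every fit. Without A, B, C, D, E and F, the list had 8, 6, 8, 5, 6 and 7 members higher in the single-end set. The summed level of the 13 genes, in CPM of the whole library, ran from 871 to 2676 in the single-end and from 345 to 414 CPM in the paired-end set. Among the other species the same sum was 6255, 306 and 5343 in the 3 *D. melanogaster* and 452, 301 and 340.0 in the 3 *D. simulans* libraries, so that replicates of the *D. melanogaster* strain also lay far apart. Whether adhering fat body tissue had a part in these differences was not tested.

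Genes on other lists included some with large differences in the same direction. *Obp99b*, an odorant-binding protein gene, had 73.6, 75.8 and 338 normalized CPM in the single-end and 8.53, 8.92 and 6.97 in the paired-end libraries (log2-fold change -4.32, standard error 0.66, adjusted p = 0.012, edgeR). Its highest library was again C, and without C the log2-fold change was -3.17. *Obp99c* (-3.15) and *Hn*, which encodes phenylalanine hydroxylase (-3.66), were likewise highest in C, with 26.7 and 15.8 normalized CPM in C and at most 4.77 in any other library. Of genes called in every fit, *fon* (-4.67), which encodes a clotting protein of the hemolymph, *Gnmt* (-2.91), a methyltransferase that uses S-adenosylmethionine, and *Gbp3* (-4.13), a growth-blocking peptide gene, also were higher in the single-end set. *fon*, *Gnmt* and *Gbp3* were chosen after their values were seen, and *Adh*, which larval fat body expresses too, was higher in the paired-end set (1.86). Of 14 nutrient response genes, 42.9 % were called, beside 32.2 % of all genes. The lipases *Lip4* (-1.24) and *bmm* (-1.01), the latter the main lipase of lipid droplets, and *daw*, an activin-like ligand of the sugar response (-1.09), were among 4 higher in the single-end set. *Sesn* (0.85) and *ACC* (0.67) were higher in the paired-end set. The remaining gene of those 4 was *Lnk* (-0.30), an adaptor of insulin signalling.

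Muscle genes went the other way. Of 26 genes of the muscle list, which holds sarcomere proteins and muscle actins, 76.9 % were called, beside 32.2 % of all genes. In the paired-end set 20 were higher, 13 of them at least 2-fold, and in the single-end set none. The median log2-fold change was 1.77 (1.30 with the smooth offset and 1.49 with 1 factor per library). The values of *thin* (*tn*), a TRIM protein that maintains the sarcomere (2R, 13016693 to 13029251, 8 exons), were 13.3, 12.95 and 2.64 normalized CPM in A, B and C and 113.5, 107 and 65.2 in D, E and F (log2-fold change 3.33, standard error 0.56, adjusted p = 0.0137, edgeR). Muscle myosin heavy chain (*Mhc*) had 38.9, 57.5 and 6.78 against 191.5, 109 and 133 normalized CPM, a log2-fold change of 2.07 with adjusted p = 0.0485 (edgeR). In both genes the sets did not overlap and C was by far the lowest library. The troponin C gene *TpnC73F* (2.94), the giant titin-like kinase *bent* (*bt*, 2.61), the troponin T gene *up* (2.54) and the myosin light chain *Mlc2* (2.29) were higher in the paired-end set to a similar degree, whereas the widely expressed *Actn* (0.32) and *Tm1* (0.38) differed least among the called members.

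Without A, B, C, D, E and F, the muscle list had 10, 6, 25, 4, 6 and 10 members higher in the paired-end set. *Act57B* (1.05), a larval muscle actin, *Zasp52* (0.99), a protein of the Z-disc, the nesprin *Msp300* (1.63) and the titin gene *sls* (1.71) were called in every fit. The last pair have models of 15110 and 31517 nt, and with the smooth offset their log2-fold changes were 0.69 and 0.34. The 4 muscle actins share long stretches of coding sequence, so their reads may have been divided between them. The summed level of the list ran from 3320 to 4489 CPM in the single-end and from 7983 to 9062 CPM in the paired-end libraries. It did not overlap between the sets. The part of adhering muscle in these values was not tested.

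**Figure D4:**
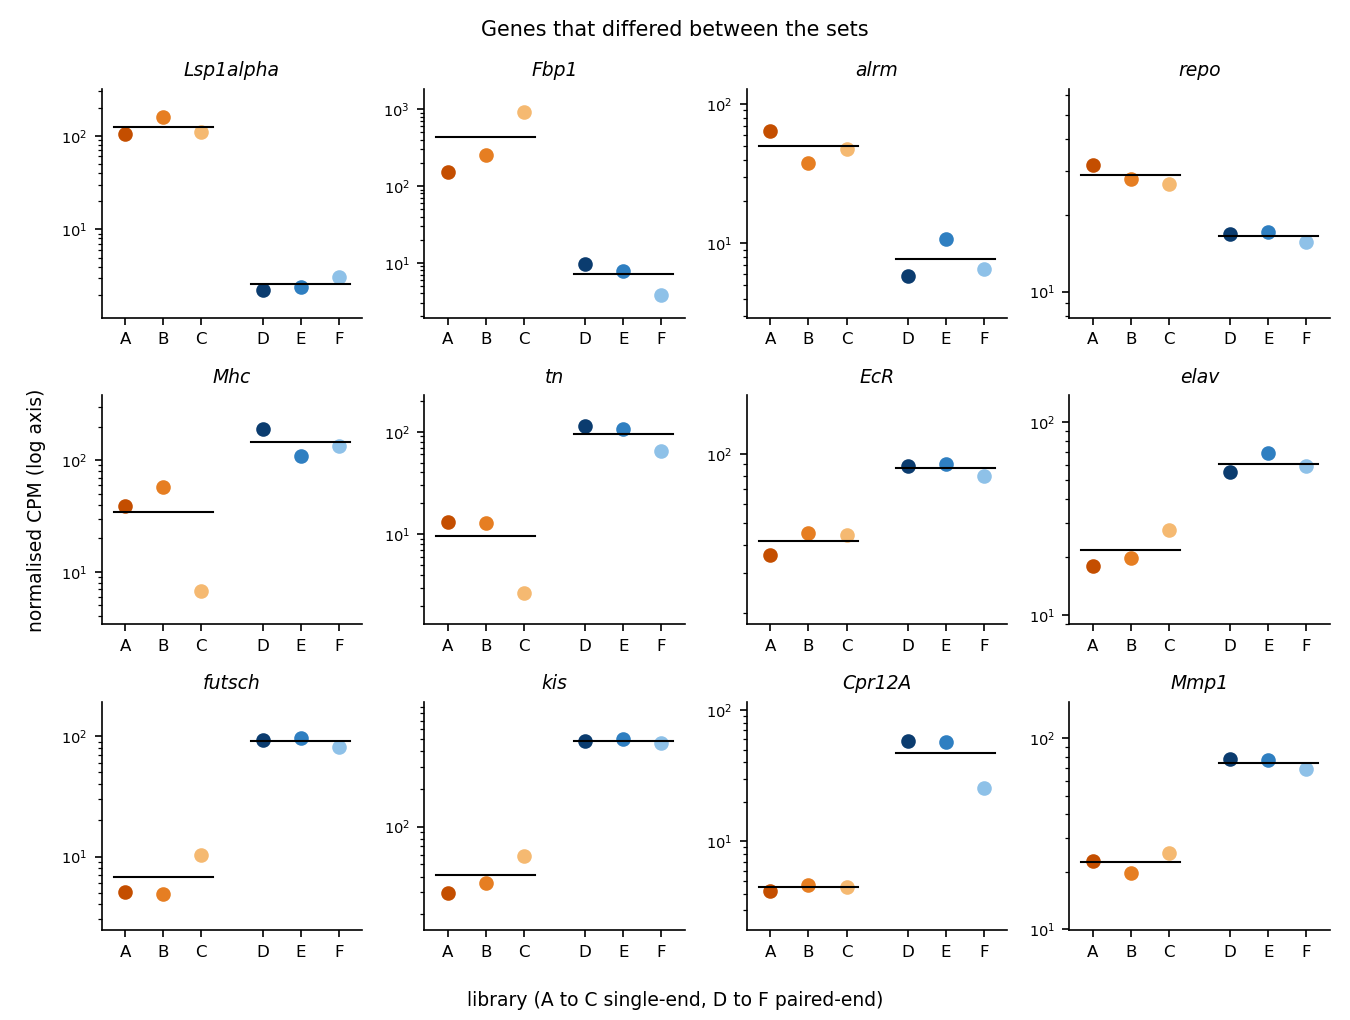
Normalized CPM (log axis) of 12 genes in each *D. mauritiana* library, with the mean of each set as a line. The fat body genes *Lsp1alpha* and *Fbp1* and the glial genes *alrm* and *repo* are lower in D, E and F, the other 8 genes are higher there, and C is the lowest library for *Mhc* and *tn*.

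Of 13 glial genes, 6 were higher in the single-end set (53.8 % of the list was called, beside 32.2 % of all genes) and only *moody* (0.54), a receptor of the blood-brain barrier glia, was higher in the paired-end set. The median log2-fold change of the list was -0.44 and fell to near 0 (-0.01) with 1 factor per library. *alrm*, a marker of astrocyte-like glia (3R, 20444095 to 20445510, 1 exon), had 64.2, 37.9 and 47.5 normalized CPM in the single-end and 5.84, 10.7 and 6.56 in the paired-end libraries, which is a log2-fold change of -2.69 (edgeR, standard error 0.29, adjusted p = 0.00768). Every single-end library lay above every paired-end library, and *alrm* was called in every fit. Glial master regulator *gcm* (-1.62), *wrapper* (-1.15), a surface protein of midline and cortex glia, and *repo* (-0.79), the homeodomain factor of lateral glia, were called in the same direction, with *htl* (-0.52) and *loco* (-0.40). Septate junction and pump genes of the barrier glia such as *Gli* (0.24) and *nrv2* (0.28) were not called. Leaving out A, B, C, D, E and F gave 4, 2, 7, 1, 4 and 4 glial genes higher in the single-end set.

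A pair of transcription factor genes that act in the brain and optic lobes also stood out among the genes called in every fit, although neither belongs to a list. *tll*, a nuclear receptor of neural stem cells and the optic lobe, had 27.5, 36.5 and 28.1 normalized CPM against 7.16, 12.8 and 10.02 (log2-fold change -1.62), and *sim*, a regulator of midline and optic lobe neurons, had 25.4, 23.0 and 18.3 against 4.80, 7.89 and 6.65 (-1.78). *gcm2* (-1.999), the paralogue of *gcm*, was lower in the paired-end set as well. These 3 genes were chosen after their values were seen. None of their libraries overlapped between the sets, which also held for 2736 of all 10467 genes tested in this direction and 2934 in the other.

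Among 25 neuron and synapse genes, 8 were higher in the paired-end and 2 in the single-end set, and 15 were not called. The share called was 40.0 %, beside 32.2 % of all genes, and the median log2-fold change was 0.42. *futsch*, which encodes a microtubule-binding protein of axons and synapses (X, 1172731 to 1202165, 17 exons), had 5.12, 4.87 and 10.2 normalized CPM in the single-end and 93.5, 97.0 and 81.9 in the paired-end libraries. This is a log2-fold change of 3.73 (edgeR, standard error 0.29, adjusted p = 0.00382) and of 3.19 with the smooth offset, which matters for a model of 7607 nt. *ple*, the tyrosine hydroxylase of dopamine and cuticle pigment synthesis (4.10), the calcium channel *cac* (1.78), *Syx1A* (1.62), the active zone gene *brp* (1.61), the vesicle chaperone *Csp* (1.20), the potassium channel *Sh* (1.13) and *Cam* (0.78) completed the 8. The members that were higher in the single-end set were *Ilp3* (-3.76) and *Ilp5* (-3.73), insulin-like peptide genes of neurosecretory cells in the brain, with at most 3.58 normalized CPM in any library. *futsch* was the only member called in every fit, and without A, B, C, D, E and F there were 7, 2, 9, 1, 4 and 6 members higher in the paired-end set.

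The genes that define the disc differed in both directions and by less than 2-fold. Of 20 disc identity genes, 6 were higher in the paired-end and 6 in the single-end set, a share of 60.0 % beside 32.2 % of all genes tested, with a median log2-fold change of -0.07. *ocelliless* (*oc*, 0.98), which patterns the ocelli and the dorsal head, *homothorax* (*hth*, 0.94), the Meis factor of the antenna and of undifferentiated eye cells, *Lim1* (0.69) and *cut* (*ct*, 0.65), both antennal regulators, *dachshund* (*dac*, 0.55) and *B-H1* (0.52) were higher in the paired-end set. *aristaless* (*al*, -0.95), a gene of the distal antenna, *eyeless* (*ey*, -0.69), the fly Pax6 gene, *danr* (-0.65), *eya* (-0.50), *ss* (-0.47) and *dan* (-0.38) were higher in the single-end set. *dan* lost its sign with 1 factor per library (0.03) and *ct* fell to 0.19 with the smooth offset.

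For *ey* the 6 libraries had 249, 261, 179.9, 138, 132 and 157 normalized CPM from A to F, and for *hth* 37.0, 51.2, 72.7, 99.1, 105 and 105. In both genes C lay closest to the paired-end set. *Dll*, *so*, *tsh*, *Optix* and *hbn* overlapped between the sets and were not called, and *toy* (-0.20), *Awh* (-0.44) and *tio* (0.42) did not overlap but missed the threshold. None of the 20 genes was called in every fit. Without A, B, C, D, E and F, 2, 0, 7, 0, 0 and 1 genes were higher in the paired-end and 2, 0, 6, 0, 0 and 6 in the single-end set.

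Genes of photoreceptor differentiation were called in both directions. Of 22 genes, 6 were higher in the paired-end and 7 in the single-end set (59.1 % called, beside 32.2 % of all genes). The list's median changed sign with the scaling (0.11, and -0.11 with the smooth offset). Higher in the single-end set were *ato* (-0.91), the proneural gene that founds the R8 photoreceptor in the furrow, its target *sens* (-0.63), the Notch targets *E(spl)mgamma-HLH* (-0.58) and *E(spl)mdelta-HLH* (-0.34), the homeobox gene *ro* (-0.72), the R7 ligand *boss* (-0.64) and *phyl* (-0.98), an adaptor needed for outer photoreceptors and R7. Higher in the paired-end set were *elav* (1.48), the RNA-binding protein of all differentiated neurons, *lz* (0.99) and *svp* (0.60), which act in cells recruited later, the ubiquitin ligase *sina* (0.86), *rno* (0.71) and *B-H1* (0.52). *rno*, with a model of 9735 nt, fell to 0.01 with the smooth offset, and *lz* reversed to -0.27 with the models of the direct annotation.

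*elav* (X, 322866 to 324259, 1 exon) had 17.9, 19.9 and 27.7 normalized CPM in A, B and C and 54.98, 69.1 and 59.3 in D, E and F (standard error 0.18, adjusted p = 0.00783, edgeR). It was the only gene of the list that was called in every fit. *ato* had 164, 216 and 138 normalized CPM in the single-end and 84.3, 78.9 and 113 in the paired-end libraries, without overlap, and C and F were the closest pair. Leaving out A, B, C, D, E and F gave 5, 1, 10, 1, 1 and 4 genes of the list higher in the paired-end and 4, 0, 7, 0, 0 and 5 in the single-end set.

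Phototransduction genes act in the finished rhabdomeres of the adult eye. Of 19 tested, 36.8 % were called, beside 32.2 % of all genes. Among them the calcium exchanger *Calx* (1.71), the diacylglycerol kinase *rdgA* (1.44), the G protein *Galphaq* (1.05) and the phospholipase *norpA* (0.50) were higher in the paired-end set, and *Cpn* (-1.93), a calcium buffer, the scaffold *inaD* (-1.07) and the kinase *inaC* (-0.59) in the single-end set. Values of *inaD* were 28.4, 23.3 and 11.5 normalized CPM against 10.3, 8.91 and 10.7, so that C nearly met the paired-end libraries. Without A, B, C, D, E and F, the list had 2, 0, 4, 0, 1 and 3 genes higher in the paired-end and 0, 1, 5, 0, 0 and 0 in the single-end set. Of 19 eye pigment genes (57.9 % called), 4 were higher in the paired-end set, namely the GTP cyclohydrolase *Pu* (1.45), the xanthine dehydrogenase *ry* (1.24) and the granule trafficking genes *rb* (0.76) and *lt* (0.58). The 7 higher in the single-end set included *Hn*, the pigment transporters *st* (-0.97) and *white* (*w*, -0.66), *cd* (-0.80) and the trafficking gene *pink* (*p*, -0.66). *cd* had 17.3, 15.8 and 18.8 against 9.13, 11.9 and 8.72 normalized CPM, with no overlap. The pigment genes gave 2, 0, 5, 0, 0 and 4 calls in the first direction and 4, 3, 7, 0, 1 and 3 in the second when A, B, C, D, E and F were left out.

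Among 24 ecdysone response genes, 5 were higher in the paired-end and 4 in the single-end set, a share of 37.5 % beside 32.2 % of all genes. The 5 were *Eip63F-1*, a calcium-binding protein gene (2.46), the zinc finger gene *crol* (1.06), the ecdysone receptor gene *EcR* (1.05), the kinase gene *Eip63E* (0.64) and the early ETS factor *Eip74EF* (0.62). *EcR* (2R, 803673 to 805963, 4 exons in the model) had 35.9, 44.8 and 44.1 normalized CPM in the single-end and 88.7, 90.2 and 80.3 in the paired-end libraries, with a standard error of 0.12 and adjusted p = 0.00768 (edgeR). The libraries within a set lay close together, and *EcR* was called in every fit. Higher in the single-end set were *ftz-f1* (-1.41), the competence factor that is on when the ecdysone titre has fallen, *Eip78C* (-0.53), *ImpE3* (-0.44) and *Hr78* (-0.31). *ftz-f1* had 88.9, 61.7 and 34.4 normalized CPM in A, B and C and 21.4, 21.4 and 26.6 in D, E and F. The list had 5, 2, 12, 1, 1 and 5 members higher in the paired-end set without A, B, C, D, E and F.

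Of 75 cuticle protein genes tested among 111 measured, 15 were higher in the paired-end and 3 in the single-end set, all at least 2-fold. The share called, 24.0 %, was below the 32.2 % of all genes. The median log2-fold change of 0.57 turned to -0.15 with 1 factor per library, 60 of the 75 models being short, and the calls to 10 higher in the paired-end and 14 in the single-end set. The cuticle protein gene *Cpr12A* had 4.21, 4.68 and 4.51 normalized CPM in the single-end and 58.1, 57.5 and 25.6 in the paired-end libraries (log2-fold change 3.39, standard error 0.33, adjusted p = 0.00759, edgeR). *Cpr92F* (4.55) had 0.17, 0.28 and 0.41 against 9.61, 7.90 and 3.04. F was the lowest paired-end library in both genes. *Cpr47Eg* (4.12), *Cpr47Eb* (3.37) and *Twdlalpha* (2.27), a member of the Tweedle family of larval cuticle proteins, were called in every fit together with these 2. *Cpr62Bc* (4.26), with 0.21, 0.07 and 0 against 2.11, 1.498 and 1.47 normalized CPM, rested on 5, 3 and 0 counts in the single-end set. Genes higher in the single-end set were *Cpr72Ea* (-1.87), *Lcp65Ad* (-1.36) and *resilin* (-1.23), the elastic protein gene of joints. Leaving out A, B, C, D, E and F gave 13, 6, 19, 5, 8 and 12 members higher in the paired-end set.

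Of 33 genes that make, bind or degrade chitin, 12 were higher in the paired-end and 3 in the single-end set. The share called was 45.5 %, beside 32.2 % of all genes, and the median was 0.37. *Cht10*, a moulting chitinase, had 159.6, 196 and 446 normalized CPM in the single-end and 1049, 1104 and 863 in the paired-end libraries (log2-fold change 1.91, standard error 0.37, adjusted p = 0.0165, edgeR). *Cda5* (1.90), a chitin deacetylase, *obst-E* (1.83), a chitin-binding protein that shapes the larval cuticle, and the chitin synthase gene *kkv* (0.34) had the same direction, and *kkv* fell to 0.00 with the smooth offset. Higher in the single-end set were the growth factor *Idgf5* (-1.47), the deacetylase *serp* (-0.42) and *knk* (-0.34), of which *serp* and *knk* turned to 0.01 and 0.07 with 1 factor per library. The counts higher in the paired-end set were 6, 1, 11, 0, 3 and 9 without A, B, C, D, E and F.

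The largest differences of intermediate genes had their highest values in 1 library. The chitin deacetylase *Cda9* had 0.17, 0.22 and 0.04 normalized CPM in A, B and C, 4.41 in D, 109 in E and 4.64 in F. The mucin genes *Muc96D* and *Muc26B* and the chitin-binding *obst-F* were likewise highest in E, with 861, 490.1 and 25.0 in E and at most 6.73, 11.6 and 0.98 in D and F. All paired-end values were still above the single-end values of the same gene. Without E the log2-fold changes were 4.96 for *Cda9* (8.05 with all libraries, and still called), 2.38 for *Muc96D* (7.80), 3.65 for *Muc26B* (7.87) and 3.01 for *obst-F* (6.72), the last 3 with adjusted p of 0.0533, 0.0918 and 0.113 (edgeR). In *D. simulans* all 3 libraries had between 105 and 135 normalized CPM of *Cda9*, and in *D. melanogaster* between 0.11 and 0.66.

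Mitochondrial transcripts were more abundant in the single-end set. The share of counts on the 12 protein-coding genes of the mitochondrial genome that were measured was 9.49 %, 2.37 % and 2.67 % in A, B and C and 0.98 %, 1.14 % and 0.73 % in D, E and F, without overlap (exact two-sided permutation test, p = 0.1, the smallest value possible). Of the 12 genes, 10 were higher in the single-end set, with a median log2-fold change of -2.19. This is 83.3 % of the list, beside 32.2 % of all genes called. The NADH dehydrogenase subunit gene *mt:ND1* had 4597, 996 and 914 normalized CPM against 323, 402 and 251 (log2-fold change -2.74, standard error 0.65, adjusted p = 0.0231, edgeR). A was the highest library for each of the 12 genes. Without A the log2-fold change of *mt:ND1* was -1.55 and 10 genes were still higher in the single-end set, but without B, C, D, E and F there were 2, 11, 0, 1 and 1.

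Nuclear genes of the mitochondrion differed less. Of 70 mitochondrial ribosomal protein genes, 24 were higher in the single-end and none in the paired-end set (median -0.33), for example *mRpL34* (-1.17), *mRpS6* (-0.86) and *mRpS30* (-0.76). Of 70 genes for nuclear subunits of the respiratory chain, 15 were higher in the single-end set (median -0.23), among them *UQCR-6.4* (-0.89), *cype* (-0.87) and *UQCR-11L* (-0.85). The ATP synthase genes *ATPsynbeta* (0.51) and *ATPsynC* (0.44) were higher in the paired-end set, and *ATPsynC* turned to -0.23 with 1 factor per library. The counts for the mitochondrial ribosome were 7, 0, 44, 0, 0 and 9 without A, B, C, D, E and F, and 5, 0, 37, 0, 0 and 3 for the respiratory chain. Most models of both lists are short, and no member was called in every fit. The shares called, 34.3 % and 24.3 %, lie near and below the 32.2 % of all genes. With 1 factor per library the medians were -0.93 and -0.89, and 65 and 55 members were higher in the single-end set.

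The proteasome, which degrades ubiquitin-tagged proteins, showed small and uniform differences. Of 37 subunit genes, 67.6 % were called, beside 32.2 % of all genes. In the paired-end set 24 were higher, by log2-fold changes between 0.28 and 0.99, and *Rpt3R* (-1.22), a variant regulatory subunit gene that is specific to testis in *D. melanogaster*, was higher in the single-end set. The median of the list was 0.34, 0.25 with the smooth offset and -0.04 with 1 factor per library, where 5 members were higher and 2 lower. The core subunit gene *Prosbeta6* had 196, 207 and 224 normalized CPM in the single-end and 318, 313 and 307 in the paired-end libraries (log2-fold change 0.58, standard error 0.08, adjusted p = 0.0104, edgeR), and the regulatory subunit gene *Rpn1* had 335, 351 and 343 against 496, 466 and 465 (0.47). In both genes the libraries of a set were within a narrow range. *Prosbeta6* also turned to -0.09 with 1 factor per library. Without A, B, C, D, E and F, 19, 1, 24, 0, 3 and 15 members were higher in the paired-end set.

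Cytoplasmic ribosomal protein genes, most of them short and all but 1 of the 75 measured passing the filter, had a median of -0.04 within length classes and -0.70 with 1 factor per library. The share of the list called was 13.5 %, beside 32.2 % of all genes. *RpLP2* (0.57), *RpL7A* (0.50) and *RpL8* (0.41) were among 7 higher in the paired-end set, and *RpL28* (-0.60), *RpL39* (-0.52) and *RpL36A* (-0.36) were higher in the single-end set. With 1 factor per library *RpLP2*, *RpL7A* and *RpL8* turned to -0.10, -0.17 and -0.27. No ribosomal gene was called without B, D or E, 3 and 2 were called in the 2 directions without A and likewise without F, and 10 and 14 without C.

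The shares called among cell cycle, signalling and apoptosis genes, 17.1 %, 21.4 % and 28.6 %, were below the 32.2 % of all genes. With 1 factor per library, 4 and 9 cell cycle genes and 12 and 5 signalling genes were higher in the paired-end and the single-end set. Of 35 cell cycle and replication genes, the mitotic cyclin gene *CycB* (0.72) was higher in the paired-end set, with 103, 136 and 162 against 224, 205 and 229.8 normalized CPM, and the replication genes *Cdc45* (-0.66), *dup* (-0.45) and *geminin* (-0.37), the kinase gene *Cdk2* (-0.44) and *E2f2* (-0.29) in the single-end set. Of 28 signalling genes, the receptor gene *Notch* (*N*, 0.96), the EGFR target *kek1* (0.83) and the EGFR ligand *spi* (0.32) were higher in the paired-end set, where *N* fell to 0.38 with the smooth offset and *spi* turned to -0.34 with 1 factor per library. The Wnt target *fz3* (-1.42), the EGFR ligand protease *rho* (-0.49) and the EGFR inhibitor *aos* (-0.47) were higher in the single-end set. *fz3* had 234, 196 and 146 normalized CPM in A, B and C and 66.2, 68.5 and 80.2 in D, E and F, and stayed called in 5 of the 6 fits. Among 14 apoptosis genes, *hid* (0.91), which triggers cell death, the caspase gene *Drice* (0.65) and its inhibitor *Diap1* (0.44) were higher in the paired-end and *Debcl* (-0.86) in the single-end set. None of these genes was called in every fit, and without B, D or E at most 1 gene of each of these 3 lists was called.

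Lists with fewer or mixed differences were the following. Of 107 detoxification genes tested, 16 were higher in the paired-end and 11 in the single-end set (25.2 % called, beside 32.2 % of all genes). The median was 0.04, -0.08 with the smooth offset and -0.30 with 1 factor per library. The cytochrome P450 genes *Cyp4e3* (4.22) and *Cyp12c1* (3.12) were called in every fit. *Cyp4e3* (2L, 9377293 to 9379294, 6 exons) had 0.22, 0.53 and 0.11 normalized CPM in the single-end and 5.78, 7.59 and 3.51 in the paired-end libraries. The glycosyltransferase gene *Ugt301D1* (2.89) was also higher in the paired-end set, and *Ugt37B1* (-3.12), *Cyp309a2* (-2.32) and *Cyp305a1* (-2.20) were higher in the single-end set at levels of at most 2.49 normalized CPM. *Cyp40* (-0.60), counted among the 11, encodes a cyclophilin and no cytochrome P450. Leaving out A, B, C, D, E and F gave 7, 4, 26, 2, 2 and 14 detoxification genes higher in the paired-end and 2, 0, 8, 0, 0 and 3 in the single-end set.

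Of 22 odorant-binding protein genes, 45.5 % were called, beside 32.2 % of all genes. *Obp19d* (3.89), *Obp56b* (3.46), *Obp18a* (2.44), *Obp49a* (2.17) and *Obp56h* (1.67) were higher in the paired-end set. The first 3 had at most 2.40 normalized CPM in any library. *Obp99b*, *Obp99c*, *Obp99a* (-1.495), *Obp44a* (-0.86) and *Obp83g* (-0.65) were higher in the single-end set, *Obp99a* with 53.2, 45.5 and 35.8 against 10.6, 19.7 and 17.4. In the fits without A, B, C, D, E and F, 1, 0, 5, 0, 0 and 4 members were higher in the paired-end and 4, 1, 5, 1, 3 and 2 in the single-end set. Of 28 immune effector genes, 39.3 % were called, beside the same 32.2 %. In the paired-end set 8 were higher, led by *BomT3* (2.60), a bomanin of the Toll response, *PGRP-LB* (2.08), an amidase that dampens the Imd response, and *pirk* (1.93), another inhibitor of that pathway. *Drsl5* (-4.71), *PGRP-SB1* (-2.54) and *PGRP-LE* (-0.39) were higher in the single-end set. *Drsl5* had 0.34 and 0.47 normalized CPM in A and B but 9.69 in C, and without C its log2-fold change was -1.59 (adjusted p = 0.107, edgeR). Immune effectors higher in the paired-end set numbered 3, 0, 8, 0, 0 and 4 without A, B, C, D, E and F, and those higher in the single-end set 2, 0, 2, 0, 0 and 0.

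Of 9 clock genes, 44.4 % were called, beside 32.2 % of all genes. *Clk* (1.16) and *cwo* (0.86) were higher in the paired-end set and the light receptor gene *cry* (-1.07) and *jet* (-0.65) in the single-end set. *cwo*, which encodes a repressor of clock targets, had 21.4, 23.0 and 24.7 against 43.9, 42.6 and 39.5 normalized CPM and was called in every fit. Of 12 basement membrane genes, 33.3 % were called, near the share of all genes. *LanA* (0.65) and *Ppn* (0.57) were higher in the paired-end set but turned to -0.13 and -0.07 with the smooth offset. The collagen-modifying enzyme genes *PH4alphaEFB* (-0.72) and *Plod* (-0.66) were higher in the single-end set. *Mmp1*, a matrix metalloproteinase that cleaves this layer and was chosen after its values were seen, had 22.7, 19.7 and 25.0 against 78.1, 76.9 and 69.2 normalized CPM (1.73, 2.03 with the smooth offset) and was called in every fit.

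Markers of other tissues were mostly low. The shares called given here stand beside 32.2 % of all genes. Of 18 salivary glue genes measured, 6 passed the filter, and *Sgs7* (-2.75) and *ng3* (-3.305), 33.3 % of the 6, were higher in the single-end set. Their summed level was 167, 264 and 33.4 CPM in A, B and C and 7.198, 28.5 and 28.0 in D, E and F, with C close to the paired-end libraries. Of 18 gut enzyme genes (16.7 % called), the proteases *Jon74E* (-3.49) and *Jon25Bii* (-3.29) and the maltase *Mal-A6* (-2.17) were higher in the single-end set. Each had at most 3.499 normalized CPM. Without C, 6 glue genes and 5 gut enzyme genes were higher in the single-end set, without F 1 glue gene, and none in the other fits. No hemocyte gene of 13 and no testis gene of 8 was called by edgeR. At an unadjusted p below 0.05 there were 3 hemocyte genes and 0 testis genes, and DESeq2 called the same numbers, 3 and 0. The hemocyte genes summed to between 600 and 753 CPM in the single-end and between 578 and 887 in the paired-end libraries, which overlap. Of 16 germline genes (25.0 % called), *ovo* (0.56), which also shapes epidermal denticles, was higher in the paired-end set. *tj* (-2.10, and -1.23 and not called with the published annotation), *vret* (-0.61) and *bgcn* (-0.56) were higher in the single-end set. Of 14 glycolysis genes (14.3 % called), *Hex-C* (2.09) and *Eno* (0.42) were higher in the paired-end set. Of 6 genes found through histone symbols (33.3 % called), *His3.3B* (1.20) was higher in the paired-end set. *HisCl1* (-0.72), a histamine-gated chloride channel and no histone, was higher in the single-end set.

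Some of the largest differences within length classes fell on genes outside these functions. *kis*, a chromatin remodeller of the CHD family (2L, 210252 to 226070, 11 exons), had 29.9, 35.7 and 58.3 normalized CPM in the single-end and 485, 496 and 462 in the paired-end libraries, or a log2-fold change of 3.54 (edgeR, standard error 0.25, adjusted p = 0.0027) and 2.85 with the smooth offset for its 9887 nt. *Nipped-A*, the Tra1 scaffold of histone acetyltransferase complexes, had 0.42, 0.22 and 1.32 against 16.7, 19.6 and 13.5 (4.70). Its model is only 545 nt long, a fragment of a large gene. With the models of the direct annotation the log2-fold changes of *kis* and *Nipped-A* were 1.29 and 1.28, both still called. *Osi14*, of the Osiris family of cuticle-forming epithelia, had at most 0.15 in the single-end and at least 1.24 in the paired-end libraries (4.18), a value that rests on 2, 3 and 4 counts in A, B and C, and *Muc11A* at most 0.65 and at least 4.09 (4.19). All 4 genes were called in every fit. *Hug*, the gene of the feeding neuropeptide hugin, was higher in the single-end set, with 15.2, 2.23 and 3.71 against 0.19, 0.94 and 0.09 normalized CPM (-4.10). A was its highest library, and without A the log2-fold change was -2.88 with adjusted p = 0.0786 (edgeR).

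Of the 135 genes called in every fit, 83 are long, 26 intermediate and 26 short, and 114 are on none of the 33 lists. All 10467 genes tested comprise 4092 long, 3557 intermediate and 2818 short genes, and within the long class a slope with length was left. Genes of the 114 were chosen for the following sentences after their values were seen. They are examples, and no function was counted over the 114. *slo* (2.45) and *SK* (2.31) encode calcium-activated potassium channels. *slo* had 1.16, 0.83 and 0.77 against 5.70, 5.15 and 3.96 normalized CPM. *Dys* (2.246) is the dystrophin gene, *dpy* (1.77) encodes a giant protein of the apical matrix, and *shot* (1.39) encodes a spectraplakin. With the smooth offset *Dys* and *dpy* had log2-fold changes of 1.70 and 0.49, both called, while *shot*, of 26412 nt, had 0.14 and was not called. The same holds for the giant cadherin *ft* (0.96, 0.01 with the smooth offset), the dynein heavy chain *Dhc64C* (0.92 and 0.02) and the spectrin *kst* (0.72 and -0.16). Among short genes, *Adh*, alcohol dehydrogenase, had 43.4, 30.5 and 31.3 against 134, 159 and 89.3 normalized CPM (1.86), and the metallothionein gene *MtnA*, which binds copper and cadmium, had 70.8, 43.2 and 46.8 against 17.7, 16.8 and 12.5 (-1.78).

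By chromosome arm, 30.7 % to 34.0 % of the genes of 2L, 2R, 3L, 3R and X were called, and 39.0 % of the 77 genes of chromosome 4. On X, 385 genes were higher in the paired-end and 196 in the single-end set of 1711 tested, with a median log2-fold change of 0.12. Chromosome 4 leaned the same way, with 20 genes against 10 and a median of 0.11. Over all genes tested, 17.1 % were higher in the paired-end and 15.1 % in the single-end set. All libraries are from females, and no test of the arms was made.

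Replicates of the same set also differed, and in part in the same genes. The SD of log2 CPM over 3 libraries had a median of 0.21 in the single-end and 0.10 in the paired-end set over the 8976 genes that averaged 20 or more counts in each of the sets. The biological coefficient of variation that edgeR estimates was 0.23 in the single-end and 0.24 in the paired-end set. It fell to 0.17 without C in the first and without E in the second. With the paired-end counts thinned to the mean depth of the single-end libraries, it was 0.16 in the paired-end set. The estimates used genes with at least 10 counts in every library of the set concerned, so the genes differ with depth. Ranked against genes of like abundance, 294 genes (3.28 %) were in the top decile of the spread in both sets, and Spearman's rho of the spread in the 2 sets was 0.21 across these genes, which share their libraries. The 6 genes with the largest spread in both sets were *CG9021*, *CG3588*, *Nplp4*, *Sgs1*, *CG34227* and *mt:CoIII*. *CG9021* had 41.5, 5.36 and 101 normalized CPM in A, B and C and 1021, 1094 and 572 in D, E and F. *Sgs1*, a salivary glue gene, had 24.5, 48.7 and 3.49 against 0.66, 9.95 and 6.00, and the neuropeptide-like gene *Nplp4* had 175, 77.7 and 25.4 against 320.2, 340.3 and 169.

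By function, 14 of 26 muscle genes, 8 of 12 mitochondrial genes, 6 of 13 hemocyte genes, 7 of 22 heat shock genes, 8 of 40 cuticle genes and all 5 salivary glue genes that had enough counts were in the top decile of the spread in both sets, beside 3.28 % of all genes. So were 4 of 14 odorant-binding protein genes, 4 of 16 phototransduction genes and 3 of 17 neuron and synapse genes. None of the 35 proteasome genes, none of the 70 mitochondrial ribosomal protein genes and none of the 20 disc identity genes was. With 3.28 % of all genes there, few would fall in lists of this size, so these counts alone are no sign of a smaller spread. In the single-end and the paired-end set taken alone, 3 and 6 disc identity genes were in the top decile. For the mitochondrial ribosome these counts were 3 and 2, and for the proteasome 0 and 0. The median SD of log2 CPM of the proteasome genes was 0.08 in the single-end and 0.05 in the paired-end set. Over all genes it was 0.21 and 0.10, for disc identity 0.28 and 0.10 and for the mitochondrial ribosome 0.17 and 0.12. These SDs were not set against genes of like abundance. Once C was left out, 25 of the 26 muscle genes were called between the sets.

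**Figure D5:**
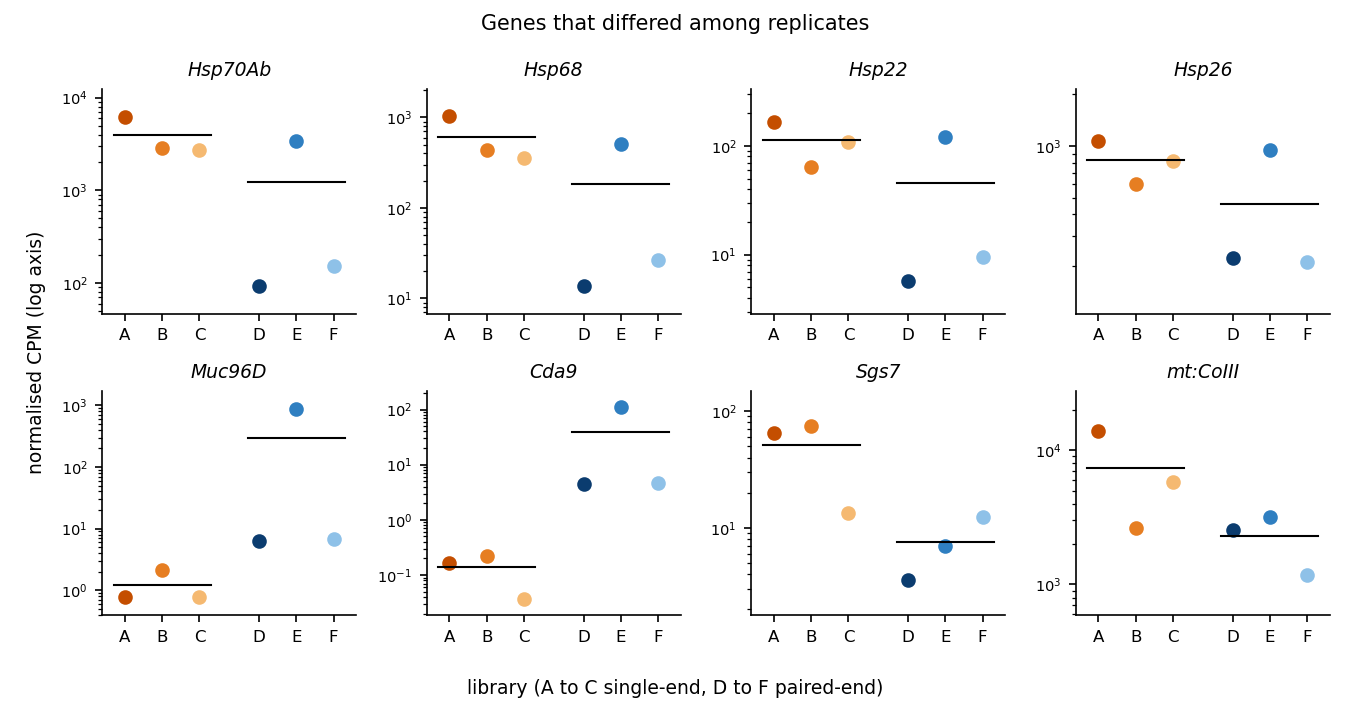
Normalized CPM (log axis) in each *D. mauritiana* library of 8 genes that vary among replicates, with the mean of each set as a line. E is far above D and F for the 4 heat shock genes and for *Muc96D* and *Cda9*, C is the lowest single-end library for *Sgs7*, and A is the highest for *mt:CoIII*.

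Heat shock genes separated replicate E from D and F. The inducible chaperone *Hsp70Ab* had 6197, 2849 and 2709 normalized CPM in A, B and C, 93.7 in D, 3435 in E and 154 in F. *Hsp68*, another inducible Hsp70, had 1031, 435 and 352 in the single-end libraries and 13.6, 506 and 26.6 in D, E and F, and the small heat shock gene *Hsp22* had 167, 64.5 and 109 against 5.76, 122 and 9.51. In all 3 genes E lay within the range of the single-end set and D and F far below it. *Hsp26* (1068, 602 and 819 against 223, 945 and 213) and the cochaperone gene *stv* (125, 94.4 and 65.7 against 39.7, 92.8 and 48.0) also had E within the range of the single-end set and D and F below it, while the constitutive *Hsc70-4* (4341 to 5237) and the mitochondrial *Hsp60A* (321 to 421) varied little. With all libraries only *l(2)efl* (2.33), a small heat shock gene, and *Trap1* (-0.52) of 23 genes were called, and without E 6 genes were higher in the single-end set. Reads of the near-identical *Hsp70* copies may have been divided between models, and the heat shock genes given here with values, *l(2)efl* and *Trap1* apart, were chosen after their values were seen.

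The same contrast of read types exists once more in the series between the other species, paired-end *D. simulans* against single-end *D. melanogaster*, with no library in common. There species and read type cannot be told apart, and 5897 of 10819 genes (54.5 %) were called. Over 10194 genes tested in both, the log2-fold changes had Spearman's rho of 0.52 (Pearson's r = 0.52) across genes. Of the genes higher in the *D. mauritiana* paired-end set, 91.5 % (1598 of 1746) were positive in the other contrast, and of those higher in the single-end set 83.3 % (1295 of 1555) were negative, beside 72.5 % of all genes with the same sign in both.

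For some of the named genes, given as examples and not counted, the values of the 2 contrasts lay close. *kis* had 3.54 in *D. mauritiana* and 3.73 between the other species, *futsch* 3.73 and 3.299, *Lsp1alpha* -5.59 and -6.16, *elav* 1.48 and 1.41, *Mhc* 2.07 and 2.00, and *tn* 3.33 and 3.18. The muscle list had medians of 1.77 and 1.70, and the mitochondrial genome -2.19 and -1.96. Medians of some other lists differed in sign between the contrasts. Among them were phototransduction (-0.37 and 0.79), odorant-binding proteins (-0.74 and 0.17), glia (-0.44 and 0.02) and eye pigment (-0.19 and 0.10). Values lay further apart for *alrm* (-2.69 and -0.64), *Gnmt* (-2.91 and -5.22), *slo* (2.45 and 0.62), *Mmp1* (1.73 and 0.53) and *Cpr12A* (3.39 and 1.15). *Adh* (1.86 and -1.91) and *SK* (2.31 and -0.83) had opposite signs. The difference between the contrasts was not tested for any gene.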

How the data were processed

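Counts of reads per gene model were deposited by the authors without normalization. Before mapping, both reads of a 100 bp pair had been cut to 50 bp pieces and pooled. Untrimmed reads were aligned with Bowtie2 against coding sequences of their own species and summed per transcript with SAMtools 0.1.19. A fragment of a paired-end library can therefore add several counts, and low-quality bases were reported for A, D and E. Near-identical copies were not separated, and use of strand is not given in the sources used here.

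The tables of the reciprocal re-annotation were joined by gene identifier. TMM factors were computed within each of 3 equal classes of *D. mauritiana* length and passed as offsets to 1 quasi-likelihood fit in edgeR 4.0.16 (R 4.3.3, limma 3.58.1), on genes kept by filterByExpr, with Benjamini-Hochberg adjustment over all 10467 genes and a threshold of 0.05. Library totals, 17619560 to 156921879 counts, set the precision of low genes, and p-values measure the spread between biological replicates of pooled discs. Normalized CPM are CPM after this scaling, and summed levels of lists are CPM of the library total. SD of log2 CPM used a pseudocount of 0.5. The script was tested on simulated data.

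Alternatives were 1 TMM factor per library, a smooth length offset, DESeq2 1.42.0, no filter or at least 10 counts in every library, the direct and published annotations, thinned paired-end counts and leaving out each library. The smooth offset without each library was added after the data had been seen. Of each class, the 4 genes with the largest difference per direction were named among called genes with at least a 2-fold change, no overlap, a mean of at least 100 counts and a symbol other than a CG or CR number, with up to 3 called members per direction of each list, the disc identity genes, the 6 genes of largest spread, and members behind counts of 5 or fewer. The lists come from textbook knowledge and symbol families. Libraries and lists were chosen with earlier results of these data known. Genes without a match in a list were left out.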

Additional observations from a re-analysis of the deposited data

Results flagged for a closer look

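In 5 named genes every paired-end library of *D. mauritiana* was below every single-end library, while every paired-end library of *D. simulans* was above every single-end library of *D. melanogaster*. The log2-fold changes in *D. mauritiana* and between the other species were -1.36 and 1.38 for the cuticle gene *Lcp65Ad*, -3.12 and 1.95 for the glycosyltransferase gene *Ugt37B1*, -0.97 and 1.28 for the pigment transporter gene *st*, -0.61 and 0.40 for the germline gene *vret*, and -0.47 and 0.15 for the EGFR inhibitor gene *aos*. The difference between the contrasts was not tested, and between the other species read type and species cannot be told apart.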

How the results depend on the processing

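No paired analysis was possible because the labels give no pairing between libraries of the 2 sets. The 3368 calls became 4745 with 1 TMM factor per library, 2809 with the smooth offset, 4432 with DESeq2, 3003 without a filter, 3251 with at least 10 counts in every library, 3317 and 2493 with the direct and published annotations and 3316 with thinned paired-end counts. With 1 TMM factor per library, 2550 genes were higher in the single-end set and 1875 differed at least 2-fold; 161 and 1483 short and 1669 and 164 long genes were higher in the paired-end and single-end set, and 903 intermediate genes in the single-end set. The published annotation gave 703 genes of at least 2-fold. The share of intermediate genes differed by -0.79 percentage points with classes made of the genes kept. Leaving out each library moved the calls between 142 and 5106 (with the smooth offset 1202, 143, 4798, 6, 124 and 956 without A, B, C, D, E and F), those of at least 2-fold between 122 and 1616, those higher in the paired-end set between 111 and 2683 and in the single-end set between 31 and 2423, genes in the top decile of both spreads between 194 and 288, and the medians of short, intermediate and long genes between -0.79 and -0.57, -0.21 and -0.15, and 0.33 and 0.50. For these classes the calls higher in the paired-end and single-end set ranged from 21 to 733 and 7 to 585, from 23 to 797 and 4 to 779, and from 67 to 1153 and 20 to 1059, and the coefficients of variation from 0.17 to 0.28 (single-end) and from 0.17 to 0.27 (paired-end). Reversed signs were found for *LanA* (-0.13) and *Ppn* (-0.073) with the smooth offset, for *serp* (0.0097), *knk* (0.071), *RpLP2* (-0.10), *RpL7A* (-0.17), *RpL8* (-0.27), *tsh* (0.40), *dan* (0.034), *ATPsynC* (-0.23), *Prosbeta6* (-0.086) and *spi* (-0.34) with 1 factor per library, and for *Optix* (0.49) and *lz* (-0.27) with the direct annotation. Over all settings, values of named genes kept side and direction 1588 times, were weaker 614 times, stronger 12 times and reversed 14 times; the cause was not tested.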
